A study of Mus musculus with 80 samples.

Results

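Meg3, Rian, Mirg, Dlk1, H19, Igf2, Airn, Igf2r, Peg13 and Snrpn are 10 autosomal genes of imprinted clusters, and they were followed by symbol among the 22556 genes of 6 expression tables from mouse embryonic stem cells. Chromatin-associated RNA was sequenced (ChrRNA-seq), so the values are of RNA still bound to chromatin, introns included. The study used these cells to ask how the m6A pathway and the adaptors of the nuclear exosome act on Xist RNA, and the 10 genes were read in the same libraries. All cells came from a Cast x 129S hybrid background in which the promoter of Xist had been replaced by a doxycycline-inducible TetOn promoter on 1 X chromosome. That promoter was on the Cast allele in the METTL3, ZFC3H1 and transgene lines and on the 129S allele in the YTHDC1 and ZCCHC8 lines, where the labels add Bgl to the Xist type. In the 4 degron lines the endogenous protein carried an FKBP12F36V tag, which lets the compound dTAG-13 direct it to degradation. METTL3, the catalytic subunit of the nuclear N6-methyladenosine (m6A) writer, was tagged in clones G4 and H1 at its N terminus and in C3 and H5 at its C terminus. YTHDC1, a nuclear m6A reader, was tagged in clones Y9F and Y12H, which were grown in 2 experiments. ZCCHC8, a subunit of the NEXT complex that brings short nuclear RNAs to the exosome, was tagged in Z4F and Z12H. ZFC3H1, a subunit of the PAXT connection that brings polyadenylated nuclear RNAs to the exosome, was tagged in 8H and 11A. Into METTL3 clone H5 a GFP-METTL3 transgene was placed at Rosa26, either wild type (WT) or with the substitution D395A that removes catalytic activity. The transgene lines are 1 clone each, WT_P2B3 and D395A_1F of the XX kind and WT_1A and D395A_9F of the kind labelled XiO, each grown in 2 experiments. By the paper's key, XX clones hold both the inactive and the active X. In XiO clones the inactive X alone was found and no active X was detected. Every line had 4 groups: untreated cells, dTAG-13 alone (26 h per the sample titles, while the treatment entry gives 2 h), doxycycline (Dox) alone for 24 h, and dTAG-13 for 2 h followed by dTAG-13 with Dox for 24 h. This gives 9 lines, counting the YTHDC1 experiments separately, with 36 groups and 80 libraries. Replicates are clones in the degron lines (n = 4 for METTL3, n = 2 elsewhere) and experiments in the transgene lines (n = 2), so p-values for a transgene line measure the spread between cultures of 1 clone.

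Imprinted genes are transcribed from the copy of 1 parent, and most lie in clusters in which a long noncoding RNA from one parental chromosome stands opposite protein-coding partners from the other. In the Dlk1-Dio3 cluster the maternal chromosome makes Meg3, Rian and Mirg, consecutive noncoding RNAs that host snoRNAs and microRNAs, and the paternal one makes Dlk1, a membrane ligand related to the Notch ligands. H19 is a maternal noncoding RNA that hosts miR-675, and Igf2 is the paternal growth factor gene with which it shares enhancers. Airn is a paternal noncoding RNA transcribed across the promoter of Igf2r, the maternal gene of the receptor that clears IGF2. Peg13 is a paternal noncoding RNA inside Trappc9, and Snrpn is the paternal gene of a spliceosomal protein whose promoter lies at the imprinting centre of its cluster. The tables sum both alleles, so the values below say nothing of parental origin.

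The Meg3 promoter is shown because Meg3, Rian and Mirg were the most abundant of the 10 genes and it stands at the head of their stretch. From 250 bases before to 50 after the RefSeq start of Meg3 (GRCm38.p6, chr12:109540746-109541045, plus strand), with each CG dinucleotide in capitals, it reads as follows.
Meg3 promoter: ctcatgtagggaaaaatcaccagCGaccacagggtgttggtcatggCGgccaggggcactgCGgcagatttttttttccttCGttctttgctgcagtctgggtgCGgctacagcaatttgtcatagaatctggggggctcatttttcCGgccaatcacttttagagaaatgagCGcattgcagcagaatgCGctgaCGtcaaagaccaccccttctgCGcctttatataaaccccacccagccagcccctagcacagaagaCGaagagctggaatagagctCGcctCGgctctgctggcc
It holds 13 CG against a median of 7 over 32851 RefSeq promoters of that length, and 62.09% of them hold fewer. The counted spans of 5 members contain RefSeq microRNA hairpins: 2 in Meg3, 3 in Rian, 10 in Mirg, 1 in H19 and 1 in Igf2. One mature sequence from each expressed host, and a second of Mirg with the same seed, are given 5′ to 3′ with the seed (bases 2 to 8) in capitals, since the host RNA counted here is the nuclear precursor of each.
mmu-miR-770-5p (Meg3): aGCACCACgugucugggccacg
mmu-miR-370-3p (Rian): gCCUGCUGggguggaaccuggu
mmu-miR-453 (Mirg): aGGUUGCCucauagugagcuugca
mmu-miR-496a-5p (Mirg): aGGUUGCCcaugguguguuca
mmu-miR-675-5p (H19): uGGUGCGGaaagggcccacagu
The seed GGUUGCC is shared by miR-453 and miR-496a-5p. No microRNA or snoRNA inside a member has a row of its own, so reads of those hairpins on the strand of the member are counted with it, while reads that another row on that strand also covers appear to be counted for neither, as described for Peg13 and Snrpn.

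Depth ran from 8.58 to 34.4 M reads a library, with a median of 22.5 M (M, mega), so that 1 read was worth 0.0291 to 0.117 CPM, the unit of the files, in which the reads of a gene are scaled to a fixed library total. Xist stood at 1.22 to 738 CPM without Dox and at 1383 to 8948 CPM with it. Of 10 embryonic stem cell markers, 9 were at or above 1 CPM in every library and Sox2 was listed at 0 in all 80. Whether another row overlaps that of Sox2, as for Peg13 below, was not examined, so its 0 is not read as a level. The cells were grown on inactivated mouse fibroblasts. Summed over 17 fibroblast markers the level was 451 to 2226 CPM, of which Fn1 alone gave 382 to 2193, while Lum was listed at 0 in 70 libraries, Postn at 0 in 36, and Col1a1 did not exceed 5.00 CPM. The sum was 970 to 2226 CPM in the XiO lines and 451 to 896 CPM in the XX transgene lines. In bulk RNA of this kind, fewer cells that express a gene and less RNA per cell cannot be told apart. Reads in genes spanning under 3 kb took 0.498 to 4.57% of a METTL3 degron library and 0.524 to 2.46% of any other. The degron acts on protein, so no RNA value here checks the depletion. The 6 tables were normalized separately, and differences were tested only within a table.

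Per kilobase counted, the 3 noncoding RNAs of the Dlk1-Dio3 cluster were the most abundant members and their partner Dlk1 was near the bottom. Over the 80 libraries the median level of Rian was 66.0 CPM per kb, that of Meg3 44.8 and that of Mirg 41.2. The length that the files give for Meg3 (30735 bases) exceeds its span of 27656 bases, so its level per kb is understated relative to the span. H19 followed at 1.88 CPM per kb, then Igf2r at 1.15 and Airn at 0.941, with Snrpn at 0.124 over its full span, Dlk1 at 0.121 and Igf2 at 0.0124. The ranges of neighbours in this order overlapped throughout except between Mirg and H19, where the lowest Mirg library (21.6 CPM per kb) was above the highest H19 library (13.3). Snrpn, at a low level per kb, spans 157719 bases and still gave 97 to 1897 reads a library. Dlk1 gave 6 to 118 reads and H19 28 to 741.

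**Figure D1:**
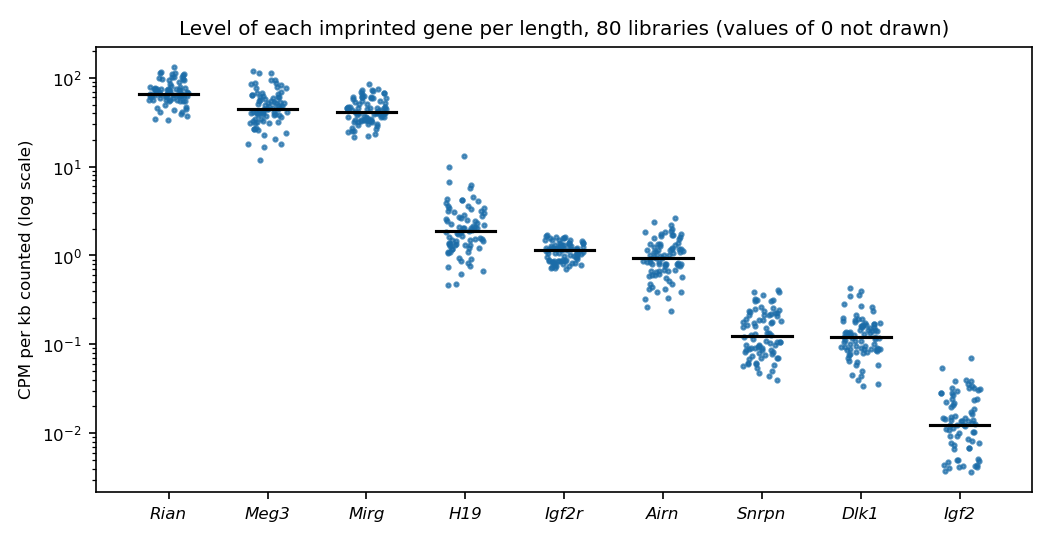
Level of 9 of the 10 genes in CPM per kb counted, on a log axis, with 1 point per library (80 libraries) and the median over all libraries as a black bar. Rian, Meg3 and Mirg sit together at medians of 41.2 to 66.0, Dlk1 and Snrpn lie near 0.12, and the 7 libraries in which Igf2 is listed at 0 are not drawn.

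Peg13 (mm10 chr15:72805599-72810324, minus strand) was listed at 0 in all 80 libraries. It lies wholly inside Trappc9 (chr15:72589619-73061204), a trafficking gene on the same strand that stood at 74.2 to 268 CPM. A read there overlaps both genes on one strand and appears to be counted for neither, so this 0 gives no level for Peg13. Igf2 (chr7:142650767-142661035, minus strand) was listed at 0 in 7 libraries and reached at most 20 reads, or 0.714 CPM, so it stayed under the mean of 1 CPM set for testing in all 6 tables. The other 8 members passed that filter in 6 of 6 tables. Peg13 and Igf2 carry no test in any comparison, and the counts below are of the 8 tested members.

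With the degron engaged, the members moved differently from line to line. Each comparison below is limma on log2(CPM + 1) with Benjamini-Hochberg adjustment over all genes tested, and a member was called at an adjusted p under 0.05. Where groups are said not to overlap, the share of all genes so separated was not counted. The fit of the degron lines holds a term for the clone. That of the transgene lines holds no term for the experiment, and values with such a term, called blocked below, are given where they change a call, since the cultures of an experiment came from one batch of cells. In YTHDC1 experiment 1, 5 of 8 members were called with dTAG and Dox against Dox (1 higher, 4 lower), where 15.5% of all tested genes were called, and 5 of 8 without Dox (1 higher, 4 lower), where 19% were. In YTHDC1 experiment 2 the counts were 4 of 8 with Dox (1 higher, 3 lower, against 14.7% of all genes) and 3 of 8 without (1 higher, 2 lower, against 17.8%). ZCCHC8 degradation gave 3 of 8 with Dox (2 higher, 1 lower), beside 40.4% of all genes, and 5 of 8 without (2 higher, 3 lower), beside 36.1%. With Dox the ZCCHC8 share of members was thus near that of all genes. ZFC3H1 gave 1 of 8 with Dox and 3 of 8 without, all lower, where 3.15% and 2.15% of all genes were called. METTL3 degradation gave 0 of 8 with Dox by limma (1 at an unadjusted p under 0.05, 1 by edgeR), where 10.5% of all genes were called, and 1 of 8 without Dox, where 23.3% were, a share of members below that of all genes. In the D395A XX line 2 of 8 members were called lower both with Dox (background 3.19%) and without it (background 6.01%). The blocked fit called 5 of 8 with Dox (2 higher, 3 lower) and 6 of 8 without (3 higher, 3 lower), beside 29.3% and 37.5% of all genes. In the WT XX line 0 of 8 were called in either comparison by limma, by edgeR or at an unadjusted p under 0.05, and the background was 0% with Dox and 0% without. The same counts of 0 held in the WT XiO line, whose background was 0% with Dox and 0% without. In the D395A XiO line limma and edgeR called 0 of 8, while 4 members with Dox and 2 without had an unadjusted p under 0.05, and the background was 0.0521% and 0.402%. Blocked, the counts there were 5 of 8 with Dox (2 higher, 3 lower) and 4 of 8 without (1 higher, 3 lower), beside 31.1% and 34.4% of all genes, while both WT lines stayed at 0 of 8 members and 0% of all genes. The median log2 change over the 8 members with Dox was -0.26 in YTHDC1 experiment 1, -0.21 in experiment 2, -0.09 in ZCCHC8, -0.30 in ZFC3H1, 0.15 in METTL3 and -0.01 in D395A XX, where the medians over all tested genes were 0.02, 0.00, 0.04, 0.00, 0.23 and 0.06. Without Dox, the summed fibroblast markers were 557 to 602 CPM with dTAG and 596 to 619 untreated in YTHDC1 experiment 1, 624 to 673 and 686 to 710.1 in ZCCHC8, and 515 to 1005 and 742 to 1049 in METTL3, and their part in these counts was not tested. Primitive endoderm markers were summed over 8 genes, of which Lama1 alone gave 95.0 to 776 CPM over the 80 libraries, while Foxa2 was at 0 in 21 libraries and Sox17 in 9. This sum, mostly Lama1, was lower with dTAG without overlap in both settings in YTHDC1 experiment 1 (151 to 169 against 211 to 214 CPM without Dox), YTHDC1 experiment 2 (159 to 168 against 217 to 231), ZCCHC8 (201 to 219 against 234 to 282) and both D395A lines, and its part was not tested.

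**Figure D2:**
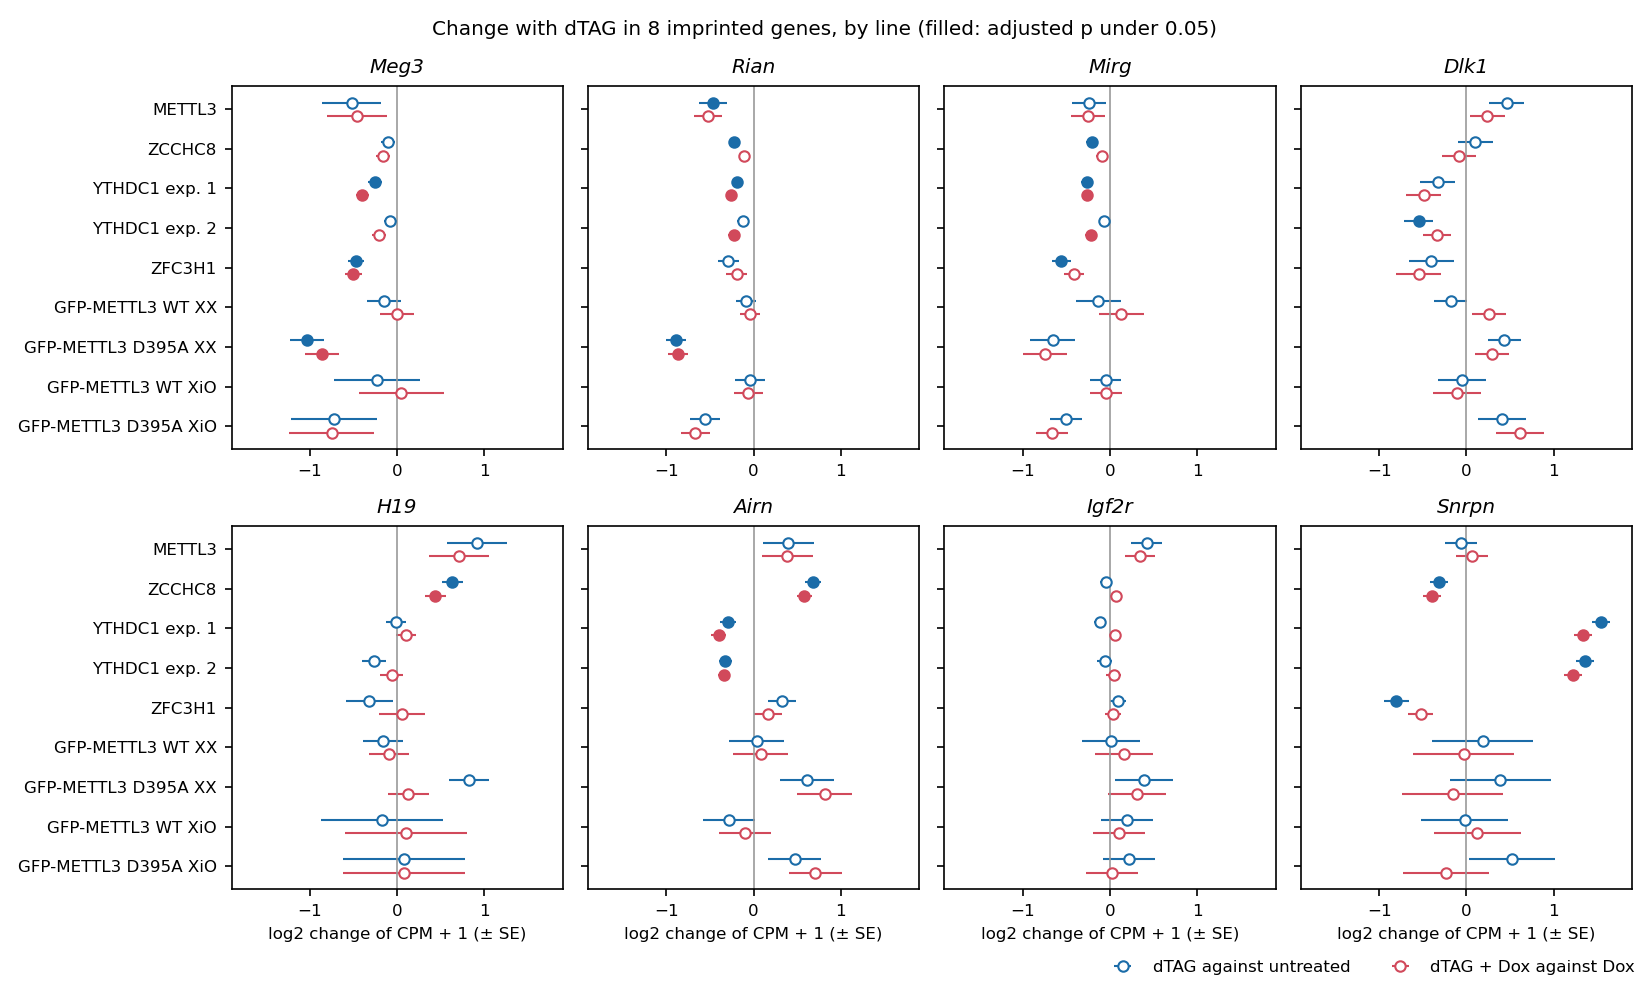
Change of each tested member (1 panel each) in 9 lines, as log2 of the ratio of CPM + 1 with its standard error, for dTAG against untreated (blue) and dTAG + Dox against Dox (red), with filled points where the adjusted p is under 0.05 in the fits without a term for the experiment. The Snrpn row, as counted outside its overlap with the Snurf row (described below), was higher in both YTHDC1 experiments and lower with ZCCHC8 loss. Airn moved the opposite way in those lines. Rian was below 0 in all 9 lines in both comparisons, as were Meg3 and Mirg for dTAG against untreated.

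Rian, host of many C/D box snoRNAs (chr12:109603944-109661711, plus strand), was lower with dTAG in every METTL3 degron clone. Without Dox it stood at 5421, 4360.3, 4679 and 5619.8 CPM in G4, H1, C3 and H5 and at 2714, 3285, 4522 and 4211 CPM with dTAG. With Dox it stood at 4399, 3740.4, 5234 and 6675 CPM, and with dTAG and Dox at 2575, 2835, 4907 and 3799.6 CPM. C3 moved least in both settings, and the clones also differed without dTAG, so the groups overlapped. The change was -0.47 ± 0.16, adjusted p = 0.0496 without Dox and -0.52 ± 0.16, adjusted p = 0.0542 with it, on the log2(CPM + 1) scale with its SE (n = 4 clones). Without clone C3 the change with Dox was -0.66 (adjusted p = 0.0409). The call without Dox, close to the threshold, was lost when all genes above 0 were tested, with no clone term, and without G4 (-0.29, adjusted p = 0.278), H1 (-0.49, 0.128) or H5 (-0.49, 0.147). Over all tested genes the median change on the CPM scale was 0.23 (log2) with Dox and 0.21 without in the METTL3 line, 0.06 and 0.12 in the D395A XX line and 0.11 and 0.12 in the D395A XiO line, and within 0.05 of 0 elsewhere. Relative to those medians the Rian changes were larger in size, and scaled by median ratios over autosomal genes they were -0.80 with Dox and -0.73 without (adjusted p = 0.0503 and 0.0381).

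Meg3 (chr12:109540995-109568650, plus strand), the first noncoding RNA of the cluster, did not move in a common direction with dTAG across the METTL3 clones. Untreated clones G4, H1, C3 and H5 were at 1176, 553, 1002 and 1203 CPM and dTAG-treated ones at 976, 949, 362 and 548 CPM. Clone H1 was higher with dTAG where the other 3 were lower. With Dox the 4 clones were at 1461, 1655, 622 and 792 CPM and with dTAG and Dox at 835, 817, 956 and 506 CPM, where C3 was the clone that was higher. The fitted changes were -0.52 ± 0.34, adjusted p = 0.26 and -0.46 ± 0.34, adjusted p = 0.348. Mirg (chr12:109734980-109749457, plus strand), host of a microRNA group that includes miR-453, was at 654 to 941 CPM with Dox and 562 to 989 CPM with dTAG and Dox, with a change of -0.25 ± 0.19, adjusted p = 0.372. The METTL3 groups overlapped for both genes.

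In the D395A XX line Meg3 and Rian fell with dTAG in both settings. Rian stood at 5532 and 6472 CPM untreated in experiments 1 and 2 and at 3191 and 3252 CPM with dTAG, and at 6325 and 5967 CPM with Dox against 3487 and 3257 CPM with dTAG and Dox. Every dTAG culture was below every culture without dTAG. The change was -0.89 ± 0.11, adjusted p = 0.00284 without Dox and -0.87 ± 0.11, adjusted p = 0.00494 with it. Meg3 in that line fell from 3520.4 and 2610.4 CPM to 1598 and 1373 CPM without Dox and from 2868 and 2332 CPM to 1607 and 1264 CPM with Dox, again without overlap. Its changes were -1.03 ± 0.19, adjusted p = 0.0125 and -0.86 ± 0.19, adjusted p = 0.0373. Mirg was at 847 and 833 CPM with Dox and at 488 and 513 CPM with dTAG and Dox, a change of -0.75 ± 0.26, adjusted p = 0.15 that did not pass. Blocked, Mirg was called with Dox (adjusted p = 1.17e-05) and without (-0.66, 2.59e-05). In the fit without the block, none of these passed with either experiment left out, at changes of -0.84 to -1.14 for Meg3 and Rian, and Meg3 with Dox was not called under median-ratio scaling (-0.95, adjusted p = 0.0625) or by edgeR (-0.91, 0.0647). The summed fibroblast markers in this line were 524 to 615 CPM untreated, 451 to 488 with dTAG, 602 to 771 with Dox and 582 to 693 with dTAG and Dox. Embryonic stem cell markers (10 genes) summed to 1945 and 2001 CPM untreated against 1611 and 1511 CPM with dTAG, and to 1713 and 1957 CPM with Dox against 1459 and 1586 CPM with dTAG and Dox, so that every dTAG culture was lower. Primitive endoderm markers were also lower in every dTAG culture, at 320.2 and 253 CPM untreated against 232 and 160 CPM with dTAG, and at 417 and 356 CPM with Dox against 349 and 220.1 CPM with dTAG and Dox. Trophoblast markers (6 genes, of which Eomes alone gave 0.756 to 10.9 CPM and Cdx2 was at 0 in 33 of the 80 libraries) were at 1.81 and 3.3 CPM untreated and 4.45 and 4.78 CPM with dTAG, and at 3.04 and 3.17 CPM with Dox and 5.13 and 4.61 CPM with dTAG and Dox. The part of any of these marker sets in the changes of the members was not tested.

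With the WT transgene in XX cells Rian was at 4322 and 4124 CPM with Dox and 4561 and 3682 CPM with dTAG and Dox, and at 3709 and 4020.3 CPM untreated and 3667 and 3617 CPM with dTAG. Its changes were -0.04 ± 0.11 and -0.08 ± 0.11, and those of Meg3 0.00 ± 0.19 and -0.15 ± 0.19, each with an adjusted p of 1. WT and D395A were carried by 1 clone each in XX cells and in XiO cells. Effects of transgene and clone therefore cannot be told apart in the differences below, with the block or without. The difference between the D395A and WT changes in XX cells was tested directly, and without the block it was not called for any member. For Rian it was -0.82 ± 0.16 with Dox (adjusted p = 0.147) and -0.81 without (0.11), and for Meg3 -0.86 ± 0.27 with Dox (0.401) and -0.88 without (0.281). By limma 0 of 8 members were called in this comparison, 0 by edgeR, and 3 with Dox and 4 without had an unadjusted p under 0.05, against a background of 0.015% and 0.00748% of all genes. Blocked, 4 of 8 members differed with Dox, beside 12.1% of all genes, and 6 of 8 without, beside 16.3%. With Dox these were Rian (adjusted p = 0.000776), Meg3 (0.000571), Mirg (-0.88, 0.000367) and Airn (0.74, 0.00838). Without Dox Rian (0.000752), Meg3 (0.000387) and Mirg (-0.52, 0.00774) were joined by Airn (0.58, 0.0255), H19 (0.98, 0.0162) and Igf2r (0.37, 0.0231), the last 3 higher with D395A.

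The XiO lines gave values of the same sign for Rian with D395A, and a call only with the block. Rian was at 5821 and 5871 CPM with Dox and at 3784 and 3577 CPM with dTAG and Dox (-0.67 ± 0.17, adjusted p = 0.164), and at 5505 and 6486 CPM untreated and 3732 and 4409.6 CPM with dTAG (-0.56 ± 0.17, adjusted p = 0.193). The groups did not overlap in either setting, a separation whose share over all genes was not counted. By limma 0.0521% and 0.402% of all genes were called there. Mirg was likewise at 969 and 981 CPM and 601 and 628 CPM with Dox (-0.67 ± 0.18, adjusted p = 0.186). Meg3 was lower in both experiments, at 3642 and 2093 CPM with Dox and 2389.7 and 1124 CPM with dTAG and Dox, but the experiments lay far apart and the change was -0.75 ± 0.49, adjusted p = 0.73. Blocked, all 3 RNAs were called lower, with adjusted p = 0.00198 for Meg3, 0.000366 for Rian and 0.00164 for Mirg with Dox, and 0.00208 (-0.72), 0.000831 and 0.00665 (-0.51) without. In this line, too, primitive endoderm markers were lower with dTAG (293 CPM in both experiments against 414 and 373 CPM with Dox) and trophoblast markers higher (4.41 to 4.82 against 2.71 to 3.2 CPM), whose part was not tested. With the WT transgene Rian was at 1996 to 2627 CPM with Dox and 1929 to 2502 CPM with dTAG and Dox. The D395A and WT changes in XiO cells differed for 0 of 8 members by limma and by edgeR, with and without Dox, where 0% and 0% of all genes differed, and 2 members with Dox and 0 without had an unadjusted p under 0.05. Blocked, 4 of 8 differed with Dox, beside 9.3% of all genes: Meg3 (-0.80, adjusted p = 0.026), Rian (-0.61, 0.016), Mirg (-0.62, 0.0402) and Airn (0.81, 0.0449). Without Dox 2 of 8 did, Rian (-0.52, 0.0225) and Airn (0.75, 0.0453), beside 14.1%.

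**Figure D3:**
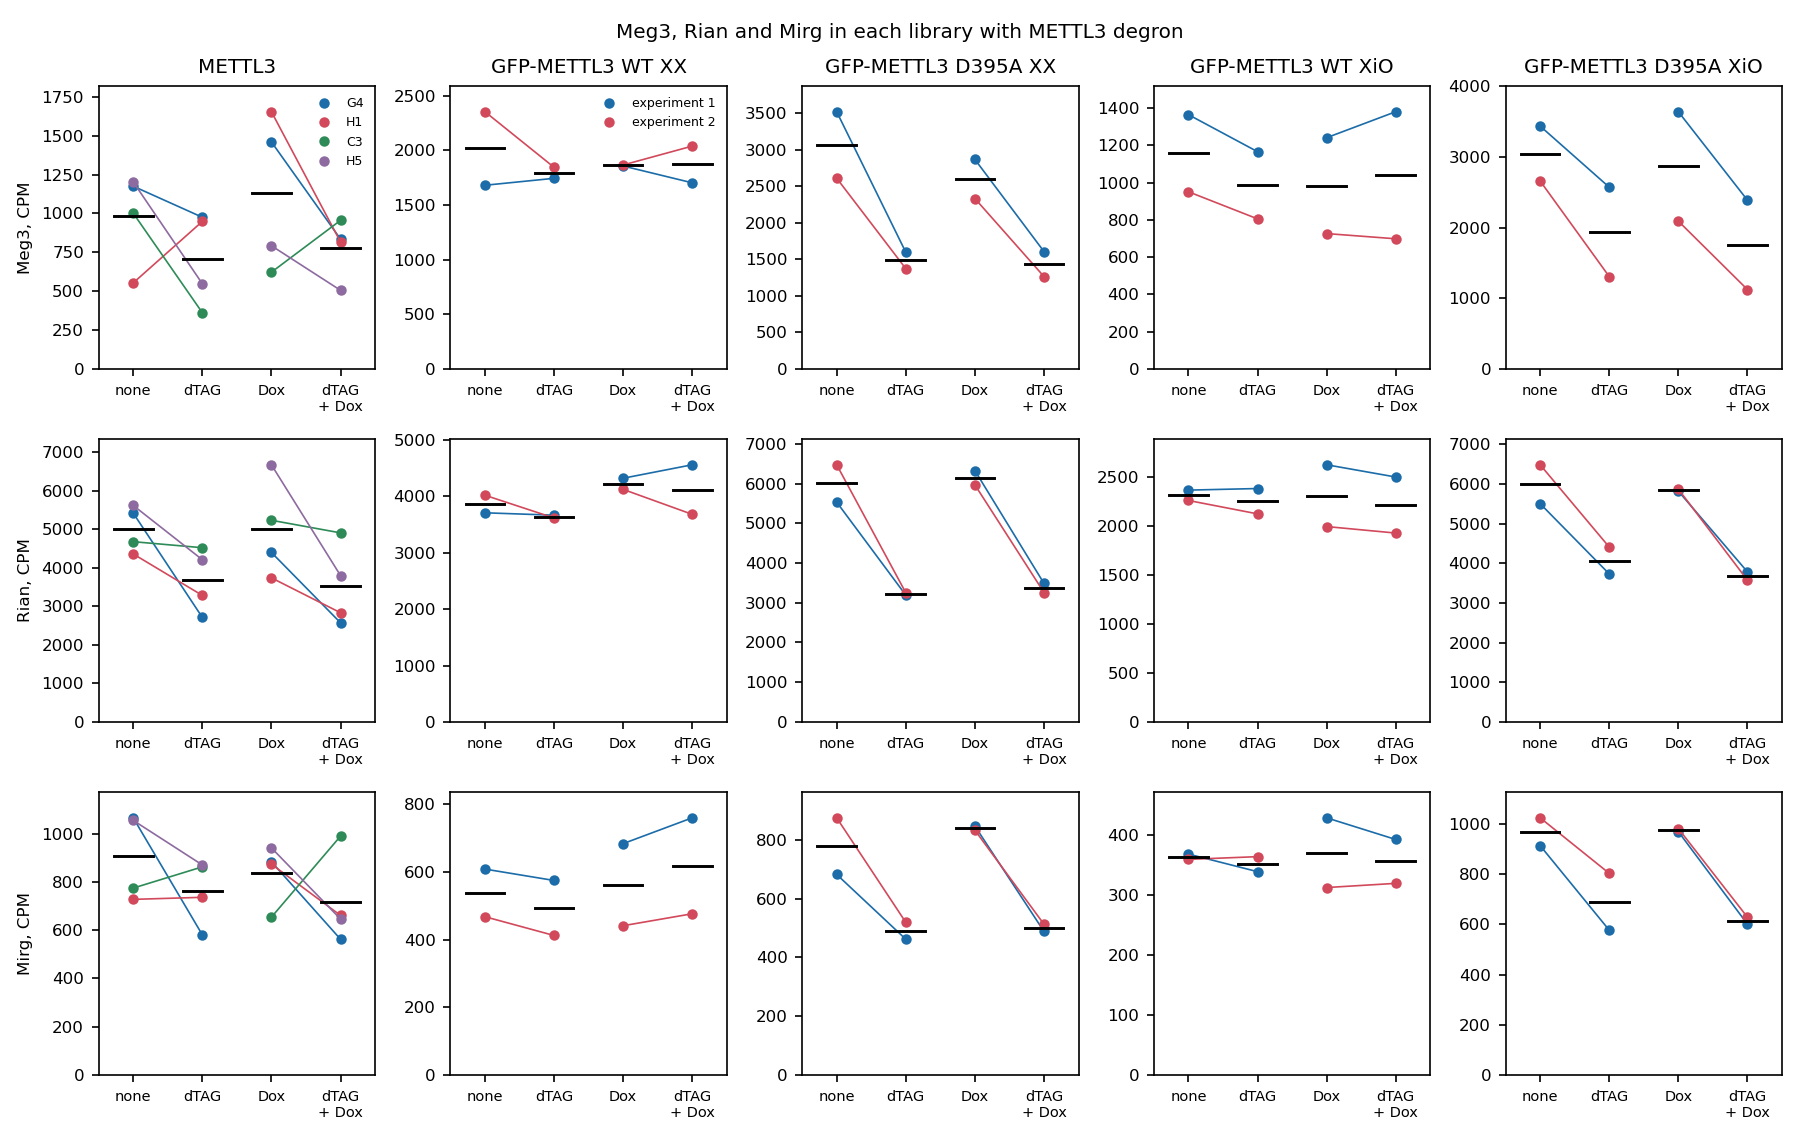
CPM of Meg3, Rian and Mirg (rows) in each library of the METTL3 degron line and the 4 transgene lines (columns), with treatments on the x axis, points joined within a clone or experiment, and group means as black bars. In the D395A XX line all 3 RNAs are lower in both experiments with dTAG, while the METTL3 clones cross for Meg3 and Mirg.

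YTHDC1 degradation lowered the 3 RNAs in experiment 1. There Rian was at 4109 and 3952 CPM with Dox in Y9F and Y12H and at 3439.9 and 3283 CPM with dTAG and Dox, a change of -0.26 ± 0.05, adjusted p = 0.00164. Meg3 was at 1478 and 1541 CPM and 1068 and 1226 CPM (-0.40 ± 0.08, adjusted p = 0.00242) and Mirg at 643 and 562 CPM and 554 and 456 CPM (-0.26 ± 0.07, adjusted p = 0.0153). Without Dox the 3 changes were -0.19 ± 0.05, -0.25 ± 0.08 and -0.26 ± 0.07, and all passed (adjusted p = 0.0103, 0.0303 and 0.0118). With either clone left out, Meg3 alone of the 3 was called with Dox, while Rian was at -0.27 without Y9F and -0.26 without Y12H (adjusted p = 0.0534 and 0.0537) and Mirg at -0.30 and -0.22 (0.135 and 0.266). Without Dox, Meg3 was called without Y12H and was at -0.03 without Y9F (adjusted p = 0.879), and Rian and Mirg lost their calls either way, at -0.26 and -0.35 without Y9F and -0.13 and -0.18 without Y12H. In experiment 2 Rian (-0.23 ± 0.06, adjusted p = 0.0188) and Mirg (-0.22 ± 0.06, adjusted p = 0.0239) passed with Dox, Meg3 was at -0.20 ± 0.08 (adjusted p = 0.0891), and none of the 3 passed without Dox. Rian with Dox was not called under median-ratio scaling (-0.24, adjusted p = 0.0793), and neither Rian nor Mirg when all genes above 0 were tested or with no clone term.

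Among the exosome adaptors, ZCCHC8 loss lowered Rian and Mirg without Dox, and ZFC3H1 loss lowered Meg3 in both settings. With ZCCHC8 degraded, Rian went from 4360.4 and 4192 CPM to 3568 and 3759 CPM without Dox (-0.22 ± 0.05, adjusted p = 0.00193) and Mirg changed by -0.21 ± 0.07, adjusted p = 0.0242. With Dox, Rian (-0.11 ± 0.05, adjusted p = 0.0785) and Mirg (-0.09 ± 0.07) were not called, and Meg3 was called in neither setting. Under median-ratio scaling all 3 were called with Dox, at -0.23 for Rian (adjusted p = 0.00605), -0.21 for Mirg (0.0242) and -0.28 for Meg3 (0.00825). Without clone Z4F the calls without Dox were lost, at -0.16 for Rian (adjusted p = 0.125) and -0.08 for Mirg (0.504). With ZFC3H1 degraded, Meg3 went from 2878 and 1776 CPM in 8H and 11A to 2109 and 1257 CPM without Dox (-0.47 ± 0.09, adjusted p = 0.0319) and from 2675 and 1944 CPM to 2065 and 1253 CPM with Dox (-0.50 ± 0.09, adjusted p = 0.0198). Clone 8H was the higher of the pair in all 4 treatments, and both clones fell in both settings. Under median-ratio scaling the call without Dox was lost (-0.48, adjusted p = 0.0615), and in both settings it was lost when all genes above 0 were tested and with no clone term. Mirg fell by 0.56 on the log2 scale without Dox (adjusted p = 0.0343), and its change with Dox was -0.41 ± 0.11, adjusted p = 0.0833. Over the 9 lines Rian had a negative change in 9 with Dox and 9 without, Meg3 in 7 and 9, and Mirg in 8 and 9. The share of all genes with such a tally was not counted. The lines are also not independent, since the YTHDC1 experiments share their clones and the transgene lines derive from METTL3 clone H5. Rian was called lower in 3 and 4 of the lines. Meg3 was called lower in 3 and 3, Mirg in 2 and 3, and none of these RNAs was called higher in any line. These counts are of the fits without the block in the transgene lines.

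Dlk1, the protein-coding partner of these RNAs (chr12:109452822-109463336, plus strand), was near the limit of detection at 0.354 to 4.55 CPM. Without the block it was called in 1 line, YTHDC1 experiment 2 without Dox, where Y9F and Y12H were at 1.67 and 1.51 CPM untreated and 0.731 and 0.811 CPM with dTAG (-0.55 ± 0.16, adjusted p = 0.0223). Those values rest on 40 and 43 reads untreated and 14 and 21 with dTAG. Dlk1 lost that call when all genes above 0 were tested and with no clone term. With Dox its change there was -0.34 ± 0.16, adjusted p = 0.177, and in experiment 1 it was -0.49 ± 0.20, adjusted p = 0.111 with Dox and -0.33 ± 0.20, adjusted p = 0.271 without. In the D395A XiO line it was at 1.38 and 1.42 CPM with Dox and 2.49 and 2.86 CPM with dTAG and Dox, a change of 0.61 ± 0.27 that did not pass (adjusted p = 0.472) but did when blocked (0.017). The pseudocount of 1 CPM shrinks changes at such levels.

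Airn (chr17:12741310-12859884, plus strand), a noncoding RNA of low level per length, rose when ZCCHC8 was degraded and fell when YTHDC1 was. With ZCCHC8 intact it was at 134 and 138 CPM untreated and 163 and 152 CPM with Dox in Z4F and Z12H. With dTAG it was at 234 and 205 CPM, and with dTAG and Dox at 216 and 259 CPM. Each dTAG library was above each library without dTAG, and the changes were 0.68 ± 0.09, adjusted p = 1.77e-05, and 0.58 ± 0.09, adjusted p = 6.59e-05 with Dox. Both held with either clone left out. In YTHDC1 experiment 1 Airn went from 129 and 149 CPM with Dox in Y9F and Y12H to 94.5 and 116 CPM with dTAG and Dox (-0.40 ± 0.09, adjusted p = 0.00581), and from 112 and 119 CPM to 81.1 and 109 CPM without Dox (-0.29 ± 0.09, adjusted p = 0.0289). Clone Y9F moved more than Y12H, and without Y9F the change without Dox was -0.12 (adjusted p = 0.668). With Dox the change was -0.36 without Y9F (adjusted p = 0.161) and -0.44 without Y12H (0.0658). In experiment 2 the changes were -0.34 ± 0.07, adjusted p = 0.00261 with Dox and -0.32 ± 0.07, adjusted p = 0.00308 without, and both clones fell in both settings.

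The ZCCHC8 and YTHDC1 experiment 1 libraries share a table, so the difference between their changes could be tested. For Airn it was 0.98 ± 0.12 with Dox (adjusted p = 2.4e-05) and 0.98 without (3.13e-05), higher with ZCCHC8 loss. With Dox 2 of 8 members differed between these lines, beside 29.6% of all genes, and without Dox 3 of 8, beside 25.1%. In the METTL3, D395A and ZFC3H1 lines Airn was higher with dTAG in most cultures, and it was called only in the D395A lines and only when blocked. In the METTL3 clones G4, H1, C3 and H5 it was at 61.1, 77.9, 68 and 31.5 CPM with Dox and 114, 90.6, 57.1 and 51.9 CPM with dTAG and Dox, where C3 alone was lower (0.39 ± 0.29, adjusted p = 0.358). In the D395A XX line it was at 102 and 71.1 CPM with Dox and 161 and 142 CPM with dTAG and Dox (0.82 ± 0.31, adjusted p = 0.198, blocked 9.26e-05). In the D395A XiO line it was at 97.8 and 136 CPM and 182 and 198 CPM (0.71 ± 0.30, adjusted p = 0.442, blocked 0.00603). Without Dox the blocked changes were 0.61 (adjusted p = 0.000736) and 0.47 (0.0384). ZFC3H1 clones 8H and 11A were far apart, at 49.2 and 142 CPM untreated and 50.3 and 219.7 CPM with dTAG (0.33 ± 0.16, adjusted p = 0.352). In the WT transgene lines Airn was at 99.1 and 130.2 CPM with Dox and 90.5 and 159 CPM with dTAG and Dox in XX cells, and at 208 and 312 CPM and 202 and 281 CPM in XiO cells, where Airn reached its highest values.

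Igf2r (chr17:12682405-12769706, minus strand), whose promoter Airn crosses on the opposite strand, was at 62.0 to 147 CPM over all 80 libraries. Without the block it was called with dTAG in none of the 9 lines by limma or edgeR, with Dox or without. Blocked, it was called higher in the D395A XX line, at 0.31 with Dox (adjusted p = 0.00508) and 0.39 without (0.000721), where the median over all genes was 0.06 and 0.12. With ZCCHC8 degraded, where Airn rose, Igf2r was at 84 and 64.1 CPM with Dox and 84.2 and 70 CPM with dTAG and Dox, a change of 0.07 ± 0.07, adjusted p = 0.482. With YTHDC1 degraded in experiment 1, where Airn fell, it was at 70.6 and 69 CPM and 76.8 and 68.7 CPM (0.06 ± 0.07, adjusted p = 0.642). Its largest change over these comparisons, 0.42 ± 0.18, adjusted p = 0.0949, was in the METTL3 line without Dox and did not pass, and it lies beside a median over all genes of 0.21. Clones Z4F and Z12H differed in Igf2r more than the treatments did. The counting used strand, so reads of Airn and Igf2r are told apart where the genes overlap.

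**Figure D4:**
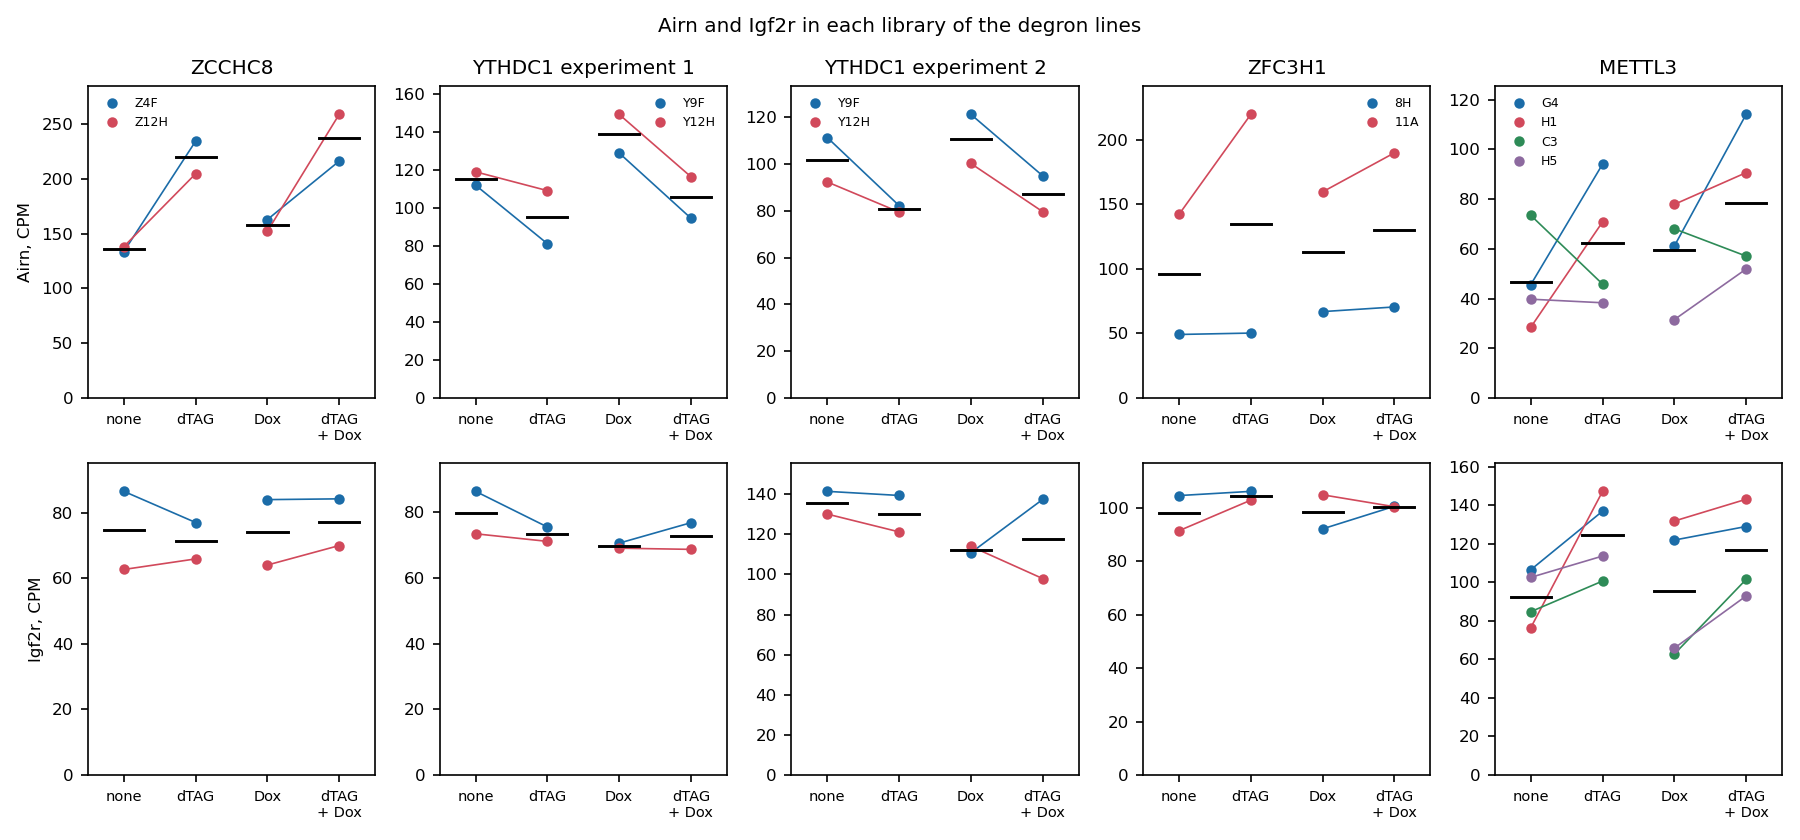
CPM of Airn (top row) and Igf2r (bottom row) in each library of the 4 degron lines, YTHDC1 in 2 experiments, with points joined within a clone and group means as black bars. Airn in both ZCCHC8 clones lies at 205 to 259 CPM with dTAG and at 134 to 163 CPM without, while the Igf2r values of those groups overlap.

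H19 (chr7:142575531-142578146, minus strand), a short and low-count RNA here, was called higher with ZCCHC8 loss in both settings and, without the block, in no other line. Clones Z4F and Z12H were at 10.3 and 5.4 CPM untreated and 17.6 and 8.36 CPM with dTAG (0.64 ± 0.12, adjusted p = 0.000552), and at 8.17 and 4.51 CPM with Dox and 11.1 and 6.7 CPM with dTAG and Dox (0.44 ± 0.12, adjusted p = 0.00707). Both clones rose, the groups overlapped because Z4F started above the level that Z12H reached, and without Z12H the change with Dox was 0.40 (adjusted p = 0.0917). The difference from the YTHDC1 change in the same table was 0.65 ± 0.17 without Dox (adjusted p = 0.00909). In the METTL3 clones G4, H1, C3 and H5 H19 was at 2.84, 1.24, 4.02 and 5.36 CPM untreated and 4.86, 3.82, 8.7 and 11.9 CPM with dTAG, higher in 4 of 4 (0.92 ± 0.34, adjusted p = 0.068). With dTAG and Dox it was at 4.97, 4.22, 11.3 and 4.77 CPM, where C3 stood apart and that library also had the largest share of reads in genes under 3 kb (4.57%), whose part was not tested. In the D395A XX line it was at 2.48 and 3.53 CPM untreated and 5.5 and 6.58 CPM with dTAG. It was not called there (0.82 ± 0.23, adjusted p = 0.0586, where limma called 6.01% of all genes) except when blocked (0.00227). ZFC3H1 clone 8H reached 34.8 CPM untreated, the highest of the 80 libraries, and 11A 6.44 CPM.

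The Snrpn row (chr7:59982501-60140219, minus strand), named for the gene of the SmN protein of spliceosomal snRNPs, gave the largest changes of any member in these comparisons. They are changes of the part of the row outside its overlap with Snurf, described below. In YTHDC1 experiment 1 it was at 13.5 and 9.51 CPM untreated in Y9F and Y12H and at 39.9 and 30.6 CPM with dTAG. With Dox it was at 11.5 and 8.52 CPM, and with dTAG and Dox at 28.2 and 25.1 CPM. Every dTAG library was above every library without dTAG, and the changes were 1.54 ± 0.10, adjusted p = 8.81e-08 (a 2.91-fold rise on the CPM + 1 scale), and 1.34 ± 0.10, adjusted p = 4.58e-07 with Dox (2.53-fold). The same clones in experiment 2 went from 19.8 and 16.7 CPM to 48.6 and 48.3 CPM without Dox (1.36 ± 0.11, adjusted p = 3.28e-08) and from 16.2 and 14.7 CPM to 33.6 and 41.6 CPM with it (1.22 ± 0.11, adjusted p = 1.64e-07). In experiment 1 both calls held with either clone left out. The row of Snurf overlaps the 3′ end of Snrpn on the same strand (chr7:59982500-60005156) and was listed at 0 to 0.651 CPM. As with Peg13, reads of the shared 22656 bases appear to be counted for neither row. The Snrpn values thus come from the other 135063 bases upstream of that stretch, and give no level or change for RNA of the shared stretch. A level per kb over the full span understates that of the counted part.

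The Snrpn row, as counted outside its overlap with Snurf, fell with ZCCHC8 loss in both settings and with ZFC3H1 loss without Dox. With ZCCHC8 degraded it went from 11 and 12.5 CPM in Z4F and Z12H to 9.45 and 9.03 CPM without Dox (-0.31 ± 0.10, adjusted p = 0.0254) and from 9.22 and 10.9 CPM to 6.94 and 7.85 CPM with Dox (-0.39 ± 0.10, adjusted p = 0.00598). The calls were lost without Z12H, where the change was -0.36 with Dox (adjusted p = 0.0785) and -0.20 without (0.34). The difference from the YTHDC1 change in that table was -1.73 ± 0.15 with Dox (adjusted p = 3.63e-07) and -1.86 without (2.49e-07). With ZFC3H1 degraded 8H and 11A went from 11 and 29.3 CPM to 6.19 and 15.7 CPM without Dox (-0.80 ± 0.15, adjusted p = 0.0208) and from 9.66 and 24.1 CPM to 7.46 and 14.2 CPM with Dox (-0.53 ± 0.15, adjusted p = 0.0849). Clone 11A kept more Snrpn than 8H in all 4 treatments, so the groups overlapped. METTL3 degradation gave no call, at 18.2, 28.3, 50 and 39.9 CPM with Dox in G4, H1, C3 and H5 and 24.8, 37.2, 35.3 and 38.1 CPM with dTAG and Dox (0.06 ± 0.18, adjusted p = 0.82). Under median-ratio scaling the sign turned, to -0.21. In the D395A XX line the experiments differed more than the treatments, at 16.9 and 61.9 CPM untreated and 28.6 and 64.2 CPM with dTAG. In the WT lines Snrpn was at 14.5 to 20.9 CPM with Dox and 16.6 to 17.4 CPM with dTAG and Dox in XX cells, and at 11 to 12.8 CPM and 12.3 to 13.7 CPM in XiO cells.

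**Figure D5:**
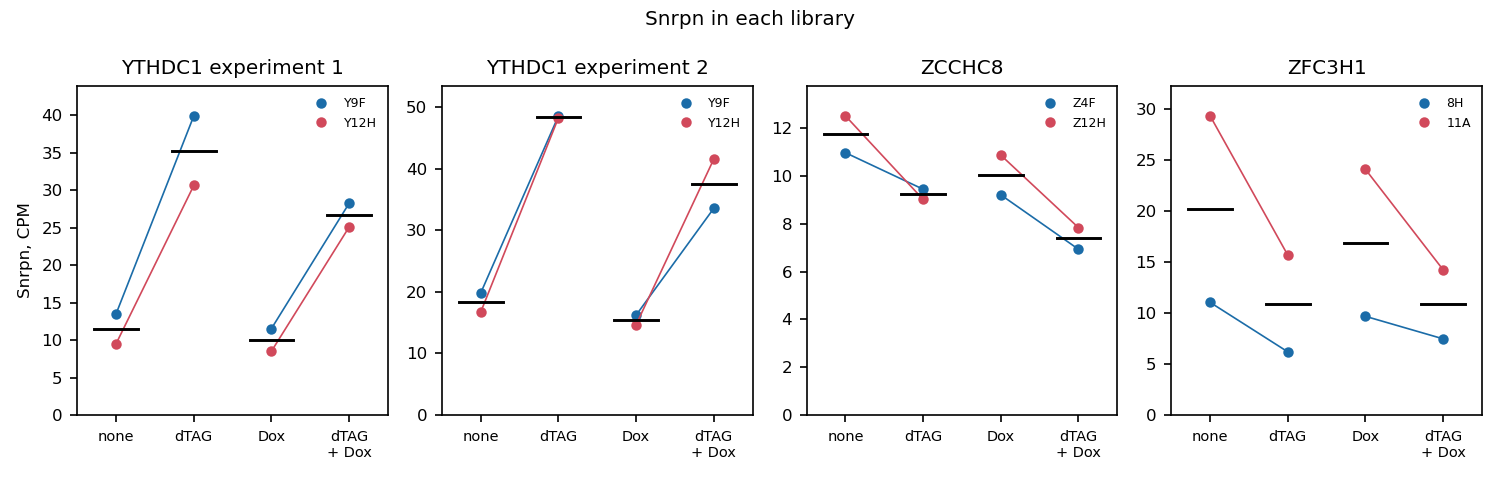
CPM of the Snrpn row, as counted outside its overlap with Snurf, in each library of YTHDC1 experiments 1 and 2, ZCCHC8 and ZFC3H1. Points are joined within a clone and group means are black bars. Both YTHDC1 clones rise from 8.52 to 19.8 CPM without dTAG to 25.1 to 48.6 CPM with it, and each ZCCHC8 and ZFC3H1 clone is lower with dTAG.

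Dox alone, which switches on Xist, moved few members. Against untreated cells, 1 of 8 members was called in YTHDC1 experiment 2, where 10% of all genes were. That was Mirg, at 478 and 489 CPM untreated and 524 and 623 CPM with Dox (0.24 ± 0.06, adjusted p = 0.0197), and in experiment 1 its change was -0.10 ± 0.07, adjusted p = 0.392. Limma called 0 of 8 in each other line. The backgrounds were 0.778% in METTL3 (1 member at an unadjusted p under 0.05), 12.6% in YTHDC1 experiment 1 (2), 10.9% in ZCCHC8 (2), 1.11% in ZFC3H1 (0), 0.00748% in WT XX (0), 0.232% in D395A XX (0), 1.17% in WT XiO (0) and 0.58% in D395A XiO (1), and edgeR called 1 (Igf2r) in YTHDC1 experiment 1 and 0 in the others. Blocked, 2 of 8 were called lower in D395A XiO, Dlk1 (-0.65, adjusted p = 0.0354) and H19 (-0.60, 0.048), beside 7.8% of all genes, and 0 of 8 in WT XX, D395A XX and WT XiO, beside 3.18%, 5.86% and 12%. Airn had a positive change in 9 of 9 lines, of 0.09 to 0.35, none of them called. H19 and Snrpn had a negative change in 8 lines and Dlk1 in 7, while Mirg had a positive change in 7. The share of all genes with such tallies was not counted, and the lines are not independent.

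Differences between the clones of a line were tested with treatment allowed for. Libraries of a clone under different treatments stood in as its replicates, so a clone and its batch of cells cannot be told apart. Between clones, 7 of 8 members differed in ZFC3H1, all but Igf2r, beside 60.1% of all genes. In YTHDC1 experiment 2 the count was 5 of 8 (Meg3, Rian, Mirg, Airn and Igf2r) beside 49.3%, and in experiment 1, with the same clones, 4 of 8 (Mirg, Airn, H19 and Snrpn) beside 9.13%. ZCCHC8 clones differed in 4 of 8 (Meg3, Mirg, H19 and Igf2r) beside 29%, and METTL3 clones in 2 of 8 (Rian and Snrpn) beside 31.1%. Untreated Meg3 levels, set side by side across tables normalized separately, ran from 984 ± 300.2 CPM (SD, n = 4) in METTL3 and 1157 ± 293 CPM (n = 2) in WT XiO to 3050.1 ± 549.7 CPM in D395A XiO and 3065 ± 643 CPM in D395A XX. Untreated Rian ran from 2315 ± 74.8 CPM in WT XiO to 6002 ± 665 CPM in D395A XX.

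Genes that lie beside the members were taken from a list of 26 chosen by position. At the Dlk1-Dio3 end, Dio3, a thyroid hormone deiodinase, rose with ZCCHC8 loss (1.04 ± 0.18 with Dox and 0.62 without). Its level was low, at 0 to 4.13 CPM over the 80 libraries (median 0.738). At the Snrpn cluster, Atp10a, a phospholipid flippase gene, rose with YTHDC1 loss in experiment 1 (0.51 ± 0.05 with Dox) and experiment 2 (0.55 ± 0.07). Ipw, a noncoding RNA of that cluster, fell with YTHDC1 loss (-0.71 ± 0.16 and -0.87 ± 0.14 with Dox in the 2 experiments) and rose with ZCCHC8 loss (0.45 ± 0.16), opposite to the Snrpn row in those lines. Ipw was low as well, at 0.110 to 8.88 CPM over the 80 libraries (median 1.31). Magel2, a ubiquitin ligase regulator, rose in both YTHDC1 experiment 2 (0.67 ± 0.13) and ZCCHC8 (0.81 ± 0.13) with Dox. Trappc9, which contains Peg13, fell with YTHDC1 loss (-0.22 ± 0.06 and -0.27 ± 0.07) and with ZCCHC8 loss (-0.83 ± 0.06). Of the neighbours tested, 3 of 12 were called in YTHDC1 experiment 1 with Dox (15.5% of all genes), 4 of 11 in experiment 2 (14.7%), 8 of 12 in ZCCHC8 (40.4%), 2 of 12 in METTL3 (10.5%), 1 of 14 in ZFC3H1 (3.15%) and 0 of 10 in every transgene line (0% to 3.19%, with 0 or 1 at an unadjusted p under 0.05). Blocked, 2 of 10 were called in each D395A line with Dox, beside 29.3% and 31.1% of all genes. None of the listed neighbours of Airn and Igf2r reached the filter in these ZCCHC8 and YTHDC1 comparisons.

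A further list of 29 imprinted genes of other loci was counted as a whole. With dTAG and Dox against Dox, ZCCHC8 loss gave 10 higher and 4 lower of 23 tested, beside 40.4% of all genes. YTHDC1 loss gave 5 higher and 1 lower of 23 in experiment 1 (15.5%) and 3 higher and 1 lower of 24 in experiment 2 (14.7%). METTL3 loss gave 2 and 2 of 22 (10.5%), ZFC3H1 loss 1 and 1 of 22 (3.15%), and the D395A XX line 1 and 1 of 22 (3.19%). The WT lines and the D395A XiO line gave 0 by limma (6 in the D395A XiO line and 0 in the WT lines at an unadjusted p under 0.05). Blocked, the D395A XX line gave 8 higher and 5 lower of 22 and the D395A XiO line 4 higher and 6 lower of 23, beside 29.3% and 31.1% of all genes. The median change over the tested genes of this list was 0.16 with ZCCHC8 loss, 0.01 with YTHDC1 loss in experiment 1 and 0.01 with METTL3 loss, beside 0.04, 0.02 and 0.23 over all genes. Only Peg3, a paternal zinc finger gene, was called in more than 4 of the 9 lines in the fits without the block. It fell with METTL3 loss (-0.75 ± 0.13, adjusted p = 0.00809) and in the D395A XX line (-1.29 ± 0.19, adjusted p = 0.00701), and rose with YTHDC1 loss (0.32 ± 0.07 and 0.27 ± 0.07) and ZCCHC8 loss (0.40 ± 0.07).

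Over the 80 libraries, with each gene centred within its clone or experiment, Rian and Mirg followed each other most closely among the members (Pearson r = 0.88), with Meg3 at 0.65 to Rian and 0.68 to Mirg. Airn ran against Rian (-0.65) and Mirg (-0.53), but was only at -0.19 to Meg3, and was at -0.46 to Snrpn. Igf2r was at -0.56 to Rian, -0.22 to Mirg and -0.16 to Meg3. These correlations describe libraries that share treatments and depth and carry no test. Among 12671 genes, those most like Airn were Abl2 (0.82), Zhx2 (0.81) and Reep1 (0.79), and those most like Snrpn were Zbbx (0.83), Pkhd1 (0.82) and Nckap5 (0.81). Meg3 was most like Rnf165 (0.88), Rian like Mirg (0.88), Ddc (0.85) and Csrp2 (0.85), and H19 like Ier2 (0.82). Dlk1 had no gene above 0.69 (Lrp8), and Igf2r reached 0.85 with Dgkq.

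The 5-letter run GGACT, the commonest core of m6A sites, was counted on the transcribed strand of each span. H19 held 2.29 per kb, and 98.31% of genes held fewer. Mirg held 1.31 per kb (85.25% of genes fewer), Meg3 1.01 (64.29%), Airn 0.961 (58.93%), Snrpn 0.818 (40.96%) and Rian 0.641 (18.85%), beside a median of 0.8874 over all genes, of which 95.34% hold the run. Of these, Rian and Snrpn were below that median. The spans include introns, and the relation of these counts to the changes with dTAG was not tested. A match of letters says nothing of methylation, which was not measured here.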

How the data were processed

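Chromatin-associated RNA from 80 libraries of mouse embryonic stem cells was sequenced by the study as stranded, ribosome-depleted paired-end libraries. The authors removed ribosomal RNA reads with Bowtie2, aligned the rest to N-masked mm10 with STAR, kept unique alignments, and counted them with featureCounts by strand over whole transcripts, introns included. They deposited CPM (reads scaled with edgeR to a fixed total of mapped read pairs) in 6 tables of 22556 genes. Dividing by the smallest step of each column gave back whole reads for 100% of values within 0.05 of a read, and columns of no sample in these tables (12) were not used. The deposited tables of allelic ratios were not used here. Both YTHDC1 experiments have the same column names, and the table of the second was taken to hold the samples titled Rep2.

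Here the 10 genes were found by symbol, and the members, the lists of neighbouring, other imprinted and marker genes, and the tests were chosen with earlier results of these data known. Tested were those genes that averaged 1 CPM or more across a table, with limma 3.58.1 in R 4.3.3 (lmFit and eBayes with a trend) on log2(CPM + 1), two-sided, with Benjamini-Hochberg adjustment over all genes tested and a threshold of 0.05. A pseudocount of 1 understates changes of low genes. Degron tables were fitted with group and clone. Clones are named in the labels and each received all 4 treatments, and the mean correlation of residuals within a clone was 0.60, 0.44, 0.40 and 0.29 for the METTL3 clones G4, H1, C3 and H5. It was 0.37 in YTHDC1 experiment 1, 0.74 in experiment 2, 0.50 in ZCCHC8 and 0.87 in ZFC3H1. Transgene tables were fitted with group only. There the experiment number pairs the cultures, since the study states that the wells of a replicate were split from one batch of cells, and residuals within an experiment correlated at 0.83 in WT XX, 0.57 in D395A XX, 0.89 in WT XiO and 0.80 in D395A XiO. A fit with the experiment as a replicate block is therefore given beside results whose call it changes. Alternatives were edgeR 4.0.16 on the recovered reads (quasi-likelihood, TMM), median-ratio scaling over autosomal genes, a pseudocount of 0.25 CPM, all genes above 0, no clone term, an experiment term, and each clone or experiment left out. The fits were tested on simulated data. Named were the members, neighbours from the list of 26, other imprinted genes called in more than 4 of 9 lines, and the 3 genes most like each member. Of 56 replicate pairs 0 held identical values. Promoters, microRNAs and spans come from RefSeq, GRCm38.p6, by symbol. No counting interval is given, since reads without molecular identifiers are not independent molecules.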

Additional observations from a re-analysis of the deposited data

Results flagged for a closer look

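H19 in METTL3 clone C3 with dTAG and Dox stood at 11.3 CPM, far above the other 3 clones of its group, with a gap of 0.894 of the group's range. It was 1 of 36 groups of 4 clones tested in this way, and chance alone gives about 1 in 20. In that library 4.57% of reads lay in genes spanning under 3 kb, the highest share of the 80 libraries, and its part in the value was not tested.

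The changes with dTAG differed between ZCCHC8 and YTHDC1 experiment 1, as tested by the interaction in limma, for 2 of 8 members with Dox and 3 of 8 without. Over all genes 29.6% and 25.1% differed there. They are the 5 calls among 48 member tests over the 3 tables that allow one, which include the D395A minus WT differences without the block. Blocked, 4 of 8 and 6 of 8 members differed in XX cells with and without Dox, beside 12.1% and 16.3% of all genes. In XiO cells 4 of 8 and 2 of 8 did, beside 9.3% and 14.1%. Each transgene line is 1 clone, so transgene and clone cannot be told apart in these D395A minus WT differences. With Dox the ZCCHC8 change minus the YTHDC1 change was 0.98 for Airn (adjusted p = 2.4e-05) and -1.73 for Snrpn (3.63e-07) on the log2 scale. Without Dox it was 0.98 for Airn (3.13e-05), -1.86 for Snrpn (2.49e-07) and 0.65 for H19 (0.00909). Both clones of each line moved in the direction of their line's mean for Airn and Snrpn, in both settings.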

How the results depend on the processing

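Over the 8 tested members and all comparisons, 0 called changes took another sign under any alternative. Of 40 calls, 40 held with a pseudocount of 0.25 CPM, 39 by edgeR (5 gained), 37 under median-ratio scaling (5 gained) and 24 with all genes above 0 tested. In the degron lines 7 of 31 held with no replicate block for the clone, and 20 of 48 retested with a clone or experiment left out (2 gained). The cause of changed calls was not tested. Counts are of members called, with dTAG and Dox against Dox first. METTL3 went from 0 to 1 by edgeR and 0 to 1 with a clone left out, and without Dox from 1 to 0 with all genes, 0 with no block and 0 to 1 with a clone left out. YTHDC1 experiment 1 went from 5 to 2 with no block and to 2 with either clone left out. Without Dox it went from 5 to 1 with all genes, 1 with no block and 1 to 3 with a clone left out. Its Dox effect went from 0 to 1 (Igf2r) by median-ratio scaling and edgeR and 0 to 1 (Meg3 without Y9F) with a clone left out, and its clone difference from 4 to 2 with all genes. ZCCHC8 went from 3 to 6 by median-ratio scaling, 5 by edgeR, 1 with no block and 1 to 3 with a clone left out, and without Dox from 5 to 2 with no block and 3 to 4 with a clone left out. YTHDC1 experiment 2 went from 4 to 2 with all genes and 0 with no block, without Dox from 3 to 1 with no block, for Dox from 1 to 0 with all genes, 2 by median-ratio scaling, 2 by edgeR and 0 with no block, and between clones from 5 to 2 with all genes. ZFC3H1 went from 1 to 0, and without Dox from 3 to 0, both with all genes and with no block. D395A XX went from 2 to 1 with all genes, by median-ratio scaling and by edgeR with Dox, stayed at 2 under these without Dox, and went to 0 with either experiment left out in both settings.

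For the transgene lines the experiment number pairs the cultures. With it as a replicate block D395A XX went from 2 to 5 with Dox and from 2 to 6 without, and D395A XiO from 0 to 5 with Dox, 0 to 4 without and 0 to 2 for Dox alone. The D395A minus WT difference went from 0 to 4 with Dox and 0 to 6 without in XX cells, and from 0 to 4 and 0 to 2 in XiO cells. The block changed no other member call. Leaving out a clone of YTHDC1 experiment 2 or ZFC3H1 leaves no residual degrees of freedom, so those 96 values carry no test, and elsewhere a lone sample in a group was assumed to vary like the others. Scaling also moved the split of all called genes: with dTAG and Dox against Dox from 1149 higher and 259 lower to 376 and 600 in METTL3, from 3490 and 2108 to 2614 and 4010 in ZCCHC8, from 1363 and 789 to 1103 and 997 in YTHDC1 experiment 1, and from 328 and 98 to 199 and 149 in D395A XX. Low counts limit Dlk1, H19 and Igf2 most.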
